A study of Mus musculus with 8 samples.

Results

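The interferon-response gene families described here are 65 mouse genes measured in whole testis, taken from 18194 genes on the array. A gene was a member if its probe set carried 1 gene symbol and that symbol began with Irf, Stat or Gbp and a digit, with Ifi, Oas, Isg, Iigp or Irgm, or was Xaf1. The rule uses names alone and no measured value, but it was chosen with earlier results of these data known. These genes had 96 of the 34958 probe sets with 1 symbol, and each gene is represented by its brightest probe set, averaged over the 8 arrays. Of the 65 members, 50 passed a filter on low values and were tested, among 13802 tested genes.

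The RNA was total RNA of testes, taken at postnatal day 28 from males on a mixed C57BL6/6J and 129 background, with 1 array per sample of oligonucleotide probe sets. Both alleles of Dmrt1, which encodes a transcription factor of Sertoli cells and germ cells, were floxed in all 8 samples, and the control mice had no Cre recombinase (n = 2). In the other groups Cre was driven by the promoter of Dhh (Dhh-Cre, n = 2) or of Sf1, also named Nr5a1 (Sf1-Cre, n = 4), both of which the submitters call specific to Sertoli cells, the somatic cells that line the seminiferous tubules. The comparison asked how testis expression differed between floxed mice with and without Cre, and the labels call the arrays of a group biological replicates. Levels are given as log2 of the deposited intensity, in replicate order within each group, and log2 4 (16 intensity units) was taken as the floor of measurement. Where arrays lie under the floor a fitted log2 difference has no measured size, and the fold is then given as a lower bound with those arrays set to the floor.

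Interferons are secreted proteins through which cells signal viral infection and activate immune cells. Alpha and beta interferons bind Ifnar1 and Ifnar2 and gamma interferon binds Ifngr1 and Ifngr2, and the receptors' Jak kinases then phosphorylate Stat proteins, which enter the nucleus with or without Irf9 and bind the interferon-stimulated response element (ISRE) or the gamma-activated site (GAS). The target genes include the Irf transcription factors, antiviral proteins of the Ifit, Ifitm and Oas families and the interferon-inducible GTPases of the Gbp and Irg families. In testis, macrophages and Sertoli cells are known to respond to interferon, while several family members also have roles outside the interferon response.

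Control arrays had a median intensity of 13.7 to 14.1 units and mutant arrays one of 15.2 to 15.9, and 47.6% to 49.9% of probe sets reached the floor. Dmrt1 read 361 and 433 intensity units in the controls, 137 to 237 in Sf1-Cre, and 1377 and 979 on the arrays labelled Dhh-Cre, so that it was not lower there. Whether its probe set lies in the floxed part is not given, and directions for Dhh-Cre rest on the labels. Spink8, a gene expressed in the epididymis, stood at log2 10 or above on Dhh-Cre 1, Sf1-Cre 1 and Sf1-Cre 3. The array Sf1-Cre 1 also stood apart in blood cell genes picked after their values were seen: S100a9 read 12.17 and S100a8 10.90 there, against at most 4.90 and 3.83 on the other arrays, and the B cell gene Ms4a1 read 7.25 against at most 3.48.

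Most interferon-family genes were higher in mutant testes than in controls. Against control, 41 of the 50 tested members passed as higher in Sf1-Cre (46.6% of all tested genes did) and 5 as lower (33.2% of all tested genes), by limma with a Benjamini-Hochberg adjusted p under 0.05. The median change of the tested members was log2 2.45, and that of all tested genes 0.34. In Dhh-Cre, 38 members passed as higher (49.1% of all tested genes) and 4 as lower (30.5%), with a median of 2.23 against 0.54 over all tested genes. In bulk tissue, more or fewer cells of a type and more or less RNA per cell cannot be told apart.

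The shares called were large over the whole table, 79.8% of tested genes in Sf1-Cre and 79.6% in Dhh-Cre, and the direction is therefore the part to read. Of the tested members, 22 had a control array under the floor and could pass the filter through the mutant arrays alone. Among the 28 members with both controls at the floor or above, 22 were higher in Sf1-Cre and 5 lower, where 41.2% and 38% of the 11999 genes meeting the same condition were. For Dhh-Cre the counts among these 28 were 21 higher and 4 lower, where 44.3% and 35% of such genes were. With values under the floor set to it, the members' medians were 2.03 in Sf1-Cre and 1.87 in Dhh-Cre.

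Every Sf1-Cre array lay above both controls for 44 members (50% of all tested genes) and below both for 5 (36.0%), and both Dhh-Cre arrays lay above for 39 (56.0%) and below for 7 (35.1%). All 22 members with a control under the floor count as above in Sf1-Cre. Among the 28 with both controls at the floor or above, 22 lay above and 5 below in Sf1-Cre (44.5% and 41.1% of such genes). For Dhh-Cre these were 21 and 7 (50.8% and 40.1%). Centring each array on 17 housekeeping genes took the all-gene median in Sf1-Cre from 0.34 to -0.36, and that in Dhh-Cre from 0.54 to -0.10. Under that scaling 6434 genes higher and 4586 lower in Sf1-Cre became 4131 and 6322, and 6781 and 4206 in Dhh-Cre became 4571 and 5307. The members then stood at 36 higher and 6 lower in Sf1-Cre, and at 35 and 7 in Dhh-Cre, with medians of 1.75 and 1.59. The mutant groups are compared with the same 2 control arrays, so their values are given side by side.

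**Figure D1:**
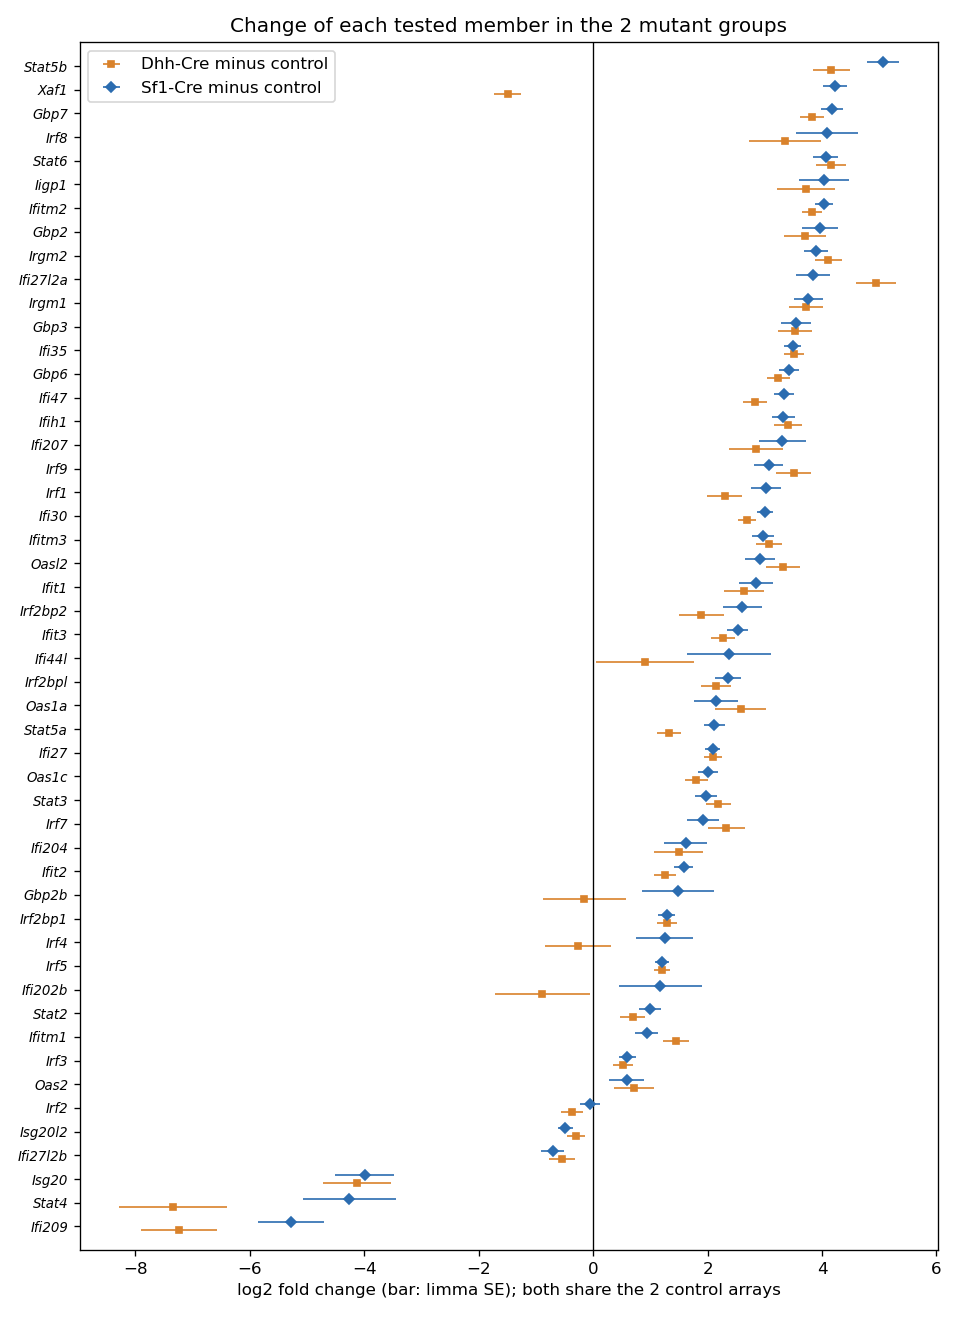
Log2 fold change of each of the 50 tested members against control (horizontal axis; bars are limma's standard errors), in Sf1-Cre (diamonds, n = 4) and Dhh-Cre (squares, n = 2), ordered by the change in Sf1-Cre. Most points lie right of 0, Ifi209, Stat4 and Isg20 lie far to the left in both groups, and Xaf1, by its brighter probe set, lies right of 0 in Sf1-Cre and left of it in Dhh-Cre. Differences of members with arrays under the floor are fitted values and not measured folds.

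The ligands themselves were hardly measured. Of 11 interferon genes listed, 7 were on the array with 1 symbol, and 6 of them (Ifna1, Ifna2, Ifna4, Ifnab, Ifnb1 and Ifng) were under the floor on every array. The other, Ifnz, reached 4.31 on Sf1-Cre 1 alone and was not tested.

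The receptors and their kinases, of which 8 were tested, were mostly higher in the mutants: 7 passed as higher and 1 as lower in Sf1-Cre, and 6 and 1 in Dhh-Cre. Among all tested genes 46.6% were higher and 33.2% lower in Sf1-Cre, and 49.1% and 30.5% in Dhh-Cre. The family counts below can be read against these shares. Ifnar2, a chain of the alpha and beta interferon receptor, read 3.55 and 3.91 in the controls, 7.20 and 7.47 in Dhh-Cre, and 7.69, 7.78, 8.05 and 8.25 in Sf1-Cre. Both mutant groups lay above the controls, which were under the floor, by at least 15.4-fold in Sf1-Cre and 10.1-fold in Dhh-Cre (adjusted p = 1.37e-06 and 7.52e-06). Jak1, a kinase shared by all interferon receptors, read 5.45 and 5.57 in the controls, 9.03 and 9.12 in Dhh-Cre, and 8.98, 9.12, 9.27 and 9.23 in Sf1-Cre. It rose by 3.64 ± 0.14 in Sf1-Cre and 3.56 ± 0.16 in Dhh-Cre, and Ifnar1 (2.24 and 2.45), Jak2 (2.20 and 2.58), Il10rb (2.96 and 3.55) and Tyk2 (0.85 and 0.90) rose in both as well. Ifngr2, a chain of the gamma interferon receptor, went the other way and read 8.11 and 8.17 in the controls, 6.81 and 6.92 in Dhh-Cre, and 5.34, 6.00, 5.53 and 6.37 in Sf1-Cre. It fell by 2.33 in Sf1-Cre and by 1.27 in Dhh-Cre, with no overlap with the controls. The partner chain Ifngr1 rose by 0.46 in Sf1-Cre and stood 0.19 above control in Dhh-Cre without passing, and Ifnlr1 was under the floor throughout.

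The Stat genes encode the transcription factors that cytokine receptors activate, and all 6 members were tested. In Sf1-Cre 5 were higher and Stat4 lower, and the counts in Dhh-Cre were the same, 5 and 1. The shares of all tested genes were 46.6% and 33.2% in Sf1-Cre, and 49.1% and 30.5% in Dhh-Cre. Stat5b, which with Stat5a carries growth hormone and prolactin signals, read 3.32 and 2.93 in the controls, 7.18 and 7.40 in Dhh-Cre, and 7.75, 7.91, 8.56 and 8.56 in Sf1-Cre, so no mutant array came near a control. With both controls under the floor its fold was at least 18.3 in Sf1-Cre and at least 9.77 in Dhh-Cre (adjusted p = 2.28e-06 and 1.43e-05, limma). The other Stat5b probe set, 1422102_a_at, was under the floor on every array (2.47 to 3.25), so the rise rests on the probe set used.

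Stat6, the mediator of interleukin-4 signals, read 5.37 and 5.07 in the controls, 9.45 and 9.29 in Dhh-Cre, and 9.04, 8.99, 9.40 and 9.68 in Sf1-Cre. The rise was 16.7-fold in Sf1-Cre and 17.8-fold in Dhh-Cre (log2 4.06 ± 0.22 and 4.15 ± 0.26, SE). The other Stat6 probe set, 1421708_a_at, had both controls under the floor and differed by only 0.70 and 0.77. These differences passed in a limma fit of all probe sets above the filter (adjusted p = 0.0155 and 0.0190). Stat5a, already well measured in controls, read 8.94 and 9.17 in the controls, 10.24 and 10.52 in Dhh-Cre, and 10.88, 11.17, 11.39 and 11.26 in Sf1-Cre, a rise of 4.33-fold and 2.50-fold. All Sf1-Cre arrays lay above both Dhh-Cre arrays for Stat5a. The other Stat5a probe set, 1450259_a_at, was under the floor on every array (1.99 to 2.48), so this rise too rests on the probe set used.

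Stat3, which acts downstream of interleukin-6 family cytokines, read 4.87 and 4.25 in the controls, 6.90 and 6.60 in Dhh-Cre, and 6.57, 6.51, 6.57 and 6.49 in Sf1-Cre, and its log2 rise was 1.98 ± 0.19 in Sf1-Cre and 2.19 ± 0.22 in Dhh-Cre. Another probe set of Stat3 rose as well, but 1426587_a_at, near the floor, differed by -0.59 and -0.14 from control. Stat2, the partner of Irf9 in the complex that binds the ISRE, changed least and read 4.06 and 4.23 in the controls, 4.64 and 5.04 in Dhh-Cre, and 5.37, 4.87, 5.09 and 5.23 in Sf1-Cre. Its log2 rise of 1.00 ± 0.19 in Sf1-Cre and 0.69 ± 0.22 in Dhh-Cre passed (adjusted p = 0.00153 and 0.0186), and centring on housekeeping genes left 0.30 and 0.06, neither passing. In Dhh-Cre it also missed the threshold without control 1 (0.61, adjusted p = 0.0915) or without Dhh-Cre 2 (0.49, adjusted p = 0.117), by limma.

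Stat4, which transmits interleukin-12 signals in lymphocytes and is also known to be expressed in developing spermatids, fell steeply. It was among the brightest members in the controls and read 12.83 and 12.88 in the controls, 4.06 and 6.96 in Dhh-Cre, and 9.81, 8.71, 8.22 and 7.64 in Sf1-Cre. The fall was 19.1-fold in Sf1-Cre and 163-fold in Dhh-Cre (log2 -4.26 ± 0.82 and -7.35 ± 0.94, SE; adjusted p = 0.00164 and 0.000175). The arrays of each mutant group were far apart, from 7.64 to 9.81 in Sf1-Cre and at 4.06 and 6.96 in Dhh-Cre, while the controls differed by little.

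The summed intensity of 10 spermatid genes, all of them lower in Sf1-Cre and 9 of them in Dhh-Cre, was 70720 and 67058 in the controls. It was 1261 and 12284 in Dhh-Cre and 4437, 2275, 1337 and 876 in Sf1-Cre. The summed intensity of 9 spermatocyte genes was 27626 and 30056 in the controls, 10027 and 12267 in Dhh-Cre, and 19646, 16721, 12366 and 10613 in Sf1-Cre. The Sf1-Cre arrays thus stand in the same order for Stat4 and for both sums, and Dhh-Cre 2 exceeds Dhh-Cre 1 in all 3. The part of these germ cell signals in the fall of Stat4 was not tested.

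Of the 8 interferon regulatory factors, 7 were higher in Sf1-Cre (46.6% of all tested genes) and 6 in Dhh-Cre (49.1%). Irf1, a transcription factor induced by gamma interferon through GAS elements, read 3.70 and 3.86 in the controls, 6.47 and 5.70 in Dhh-Cre, and 6.68, 6.56, 6.72 and 7.24 in Sf1-Cre, and Irf8, a factor of macrophage and dendritic cell development, read 4.07 and 3.81 in the controls, 6.59 and 8.0 in Dhh-Cre, and 7.23, 7.48, 8.59 and 8.82 in Sf1-Cre. For both genes every mutant array lay above both controls. The rise was at least 6.97-fold in Sf1-Cre and at least 4.24-fold in Dhh-Cre for Irf1, and at least 15.9-fold and 9.56-fold for Irf8. The second probe set of Irf8, 1448452_at, also rose, by 2.24 and 2.05.

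Promoter sequence of these factors is shown because both hold the gamma-activated site, searched as TTCNNNGAA, a pattern that reads alike on both strands. Irf2, which was not called in either group, holds a match before its start too. The stretches are from RefSeq on GRCm38.p6, 5′ to 3′ on the gene's strand, with matches in capitals. That of Irf1 is chr11:53769904-53769952 (plus strand), with a match ending 81 bases before the annotated start. That of Irf8 is chr8:120736167-120736233 (plus strand), with 2 matches, the nearer ending 144 bases before the start.
Irf1: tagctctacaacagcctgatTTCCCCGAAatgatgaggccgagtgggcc
Irf8: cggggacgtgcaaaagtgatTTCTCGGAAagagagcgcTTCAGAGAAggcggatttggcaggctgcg

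Irf9, the DNA-binding subunit of the ISRE-binding complex, read 5.42 and 4.58 in the controls, 8.65 and 8.37 in Dhh-Cre, and 7.74, 8.06, 8.25 and 8.23 in Sf1-Cre, and Irf7, the factor that amplifies alpha interferon production, read 3.80 and 3.97 in the controls, 6.51 and 5.93 in Dhh-Cre, and 5.39, 5.58, 5.97 and 6.31 in Sf1-Cre. Neither gene's mutant arrays overlapped the controls. Irf9 rose 8.37-fold in Sf1-Cre and 11.4-fold in Dhh-Cre, and Irf7 at least 3.51-fold and 4.65-fold.

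Irf5, which acts in Toll-like receptor signalling of macrophages, read 8.50 and 8.55 in the controls, 9.71 and 9.73 in Dhh-Cre, and 9.70, 9.66, 9.78 and 9.78 in Sf1-Cre. With a spread of 0.06 or less (SD) in each group, its rise of 2.31-fold in Sf1-Cre and 2.29-fold in Dhh-Cre was among the tightest. Irf3, which is present before infection and switched on by phosphorylation, read 10.13 and 10.14 in the controls, 10.67 and 10.65 in Dhh-Cre, and 10.83, 10.49, 10.88 and 10.72 in Sf1-Cre. Its small rise of 0.60 ± 0.15 in Sf1-Cre and 0.53 ± 0.17 in Dhh-Cre passed, turned to -0.10 and -0.11 when arrays were centred on housekeeping genes, and another of its probe sets, 1438721_a_at, differed from control by -0.61 and -0.17. In Dhh-Cre the call for Irf3 was also lost without any 1 of control 1, control 2, Dhh-Cre 1 or Dhh-Cre 2 (log2 0.51 to 0.54).

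Irf2, a factor that competes with Irf1, was not called in either group and read 7.54 and 8.02 in the controls, 7.30 and 7.52 in Dhh-Cre, and 7.65, 7.63, 7.80 and 7.79 in Sf1-Cre. Its difference from control was -0.06 ± 0.17 in Sf1-Cre and -0.37 ± 0.20 in Dhh-Cre, and the controls enclosed the Sf1-Cre arrays. Without control 2 the Sf1-Cre difference was 0.18, and without control 1 the Dhh-Cre difference was -0.61 and passed; centred on housekeeping genes, both differences passed as lower (-0.76 and -1.0).

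Irf4, a factor of lymphocytes and of some macrophages, read 3.62 and 3.54 in the controls, 3.04 and 3.58 in Dhh-Cre, and 6.04, 4.48, 4.81 and 3.98 in Sf1-Cre. The highest value was on Sf1-Cre 1, the array with high S100a9 and Ms4a1, and Dhh-Cre overlapped the controls. The Sf1-Cre difference of 1.25 ± 0.50 passed narrowly by limma (adjusted p = 0.0488) and failed under 10 of 17 alternatives, among them leaving out control 1 (1.29), control 2 (1.21), Dhh-Cre 1 or Dhh-Cre 2 (1.25 each), Sf1-Cre 2 (1.37) or Sf1-Cre 3 (1.25). Without Sf1-Cre 1 the difference was 0.85 (adjusted p = 0.0230). With values under the floor set to it the difference was 0.83 and did not pass (adjusted p = 0.165, limma). The other Irf4 probe set, 1421174_at, was under the floor on every array.

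The Irf2-binding proteins, corepressors that entered through their names, rose in both groups, 3 of 3. Of all tested genes 46.6% were higher in Sf1-Cre and 49.1% in Dhh-Cre. Irf2bp2 read 4.79 and 3.63 in the controls, 5.86 and 6.35 in Dhh-Cre, and 6.46, 6.82, 7.15 and 6.84 in Sf1-Cre, Irf2bpl rose 5.13-fold in Sf1-Cre and 4.43-fold in Dhh-Cre, and Irf2bp1 at least 2.09-fold and 2.10-fold.

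**Figure D2:**
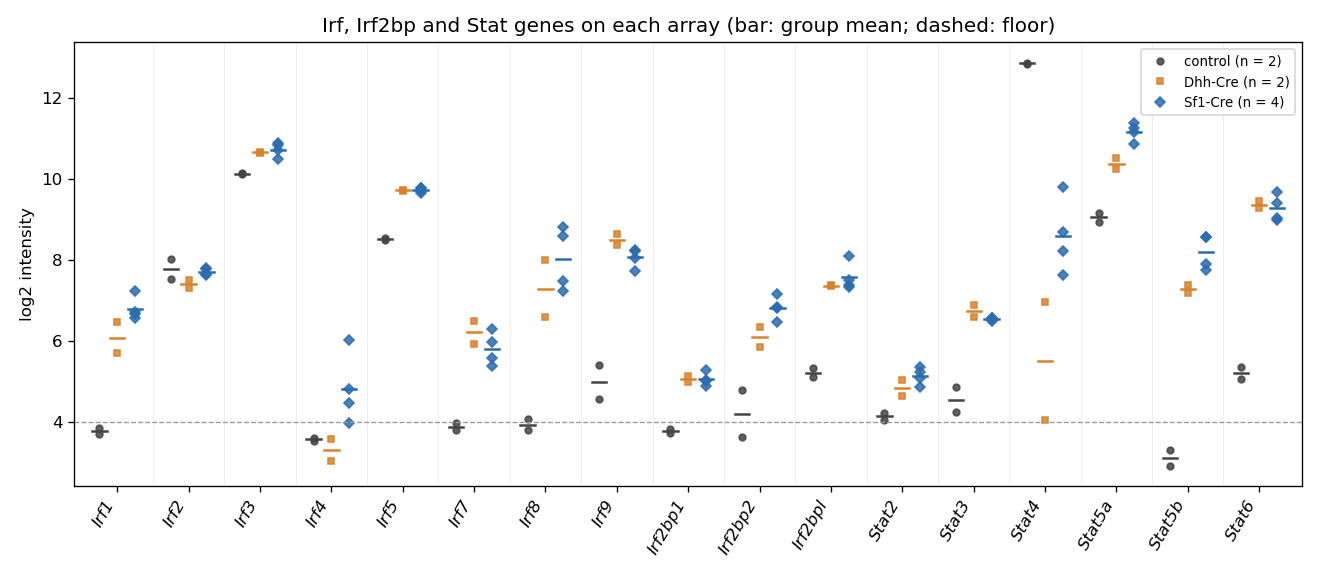
Log2 intensity of the tested Irf, Irf2bp and Stat genes on each array (points), with group means (bars) and the floor at log2 4 (dashed). Mutant points lie above the controls for most genes; Stat4 falls from about the top of the scale, and Irf2 in Sf1-Cre and Irf4 in Dhh-Cre overlap the controls.

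The interferon-inducible GTPases, which attack the membranes around intracellular pathogens, were higher with few exceptions. Of the guanylate-binding proteins 4 of 5 tested rose in each mutant group, and of the immunity-related GTPases (Ifi47, Iigp1, Irgm1 and Irgm2) 4 of 4. Among all tested genes 46.6% were higher in Sf1-Cre and 49.1% in Dhh-Cre. Gbp7 read 5.45 and 4.83 in the controls, 8.95 and 8.99 in Dhh-Cre, and 9.39, 9.22, 9.25 and 9.40 in Sf1-Cre, an 18.1-fold rise in Sf1-Cre and a 14.2-fold rise in Dhh-Cre (log2 4.18 ± 0.19 and 3.83 ± 0.22, SE; adjusted p = 9.62e-07 and 4.41e-06). Gbp2 read 2.42 and 2.12 in the controls, 6.22 and 5.73 in Dhh-Cre, and 5.92, 6.19, 5.89 and 6.94 in Sf1-Cre, with both controls far under the floor, so that the fold was at least 4.71 and 3.93.

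Gbp3 read 5.61 and 4.91 in the controls, 8.99 and 8.58 in Dhh-Cre, and 8.79, 8.42, 8.89 and 9.12 in Sf1-Cre, and Gbp6 read 4.52 and 4.39 in the controls, 7.90 and 7.48 in Dhh-Cre, and 7.72, 7.75, 7.99 and 8.06 in Sf1-Cre. The lowest mutant array of either gene was more than log2 2 above its higher control, and the folds in Sf1-Cre and Dhh-Cre were 11.6 and 11.5 for Gbp3 and 10.8 and 9.42 for Gbp6. Gbp2b was the exception and read 2.86 and 2.74 in the controls, 3.66 and 1.63 in Dhh-Cre, and 3.96, 4.02, 5.45 and 3.70 in Sf1-Cre. It was not called in Sf1-Cre (adjusted p = 0.0583) or in Dhh-Cre (adjusted p = 0.850), its Dhh-Cre arrays lay on either side of the controls, and its Sf1-Cre difference of 1.48 passed without Dhh-Cre 1 or Dhh-Cre 2 and, at 1.68, without Sf1-Cre 4. In Dhh-Cre the difference turned to 0.86 without Dhh-Cre 2.

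Iigp1 read 4.68 and 2.79 in the controls, 7.49 and 7.40 in Dhh-Cre, and 7.68, 7.61, 7.96 and 7.81 in Sf1-Cre, with controls that differed from each other by more than the mutants did. Irgm1, a regulator of the other GTPases, read 2.35 and 1.76 in the controls, 5.94 and 5.60 in Dhh-Cre, and 5.56, 5.55, 5.96 and 6.19 in Sf1-Cre, and Irgm2 read 2.78 and 2.63 in the controls, 6.61 and 7.01 in Dhh-Cre, and 6.51, 6.28, 6.69 and 6.90 in Sf1-Cre. In Sf1-Cre and Dhh-Cre the folds were at least 10.8 and 8.61 for Iigp1, at least 3.51 and 3.41 for Irgm1 and at least 6.05 and 7.03 for Irgm2. Ifi47 read 3.34 and 3.59 in the controls, 6.44 and 6.16 in Dhh-Cre, and 6.72, 6.65, 6.76 and 7.10 in Sf1-Cre, with no overlap, and rose at least 7.00-fold and 4.92-fold.

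Several GTPase promoters hold the ISRE core, searched on both strands as GAAA, 2 bases of any kind and GAAA again, and those of called members with a match upstream of the start and outside other genes are shown because these genes rose together. The stretches are again RefSeq sequence on GRCm38.p6, on the gene's strand, with matches in capitals (a match on the other strand reads as TTTC, 2 bases and TTTC). They are chr3:142620584-142620633 for Gbp2, chr3:142559979-142560015 for Gbp3, chr3:142530263-142530312 for Gbp7 and chr11:58214893-58214942 for Irgm2, all on the plus strand, and chr11:48871421-48871470 for Irgm1 on the minus strand. The match, or the nearer of 2, ended 49 bases before the start in Gbp2, 29 in Gbp3, 43 in Gbp7, 54 in Irgm2 and 14 in Irgm1.
Gbp2: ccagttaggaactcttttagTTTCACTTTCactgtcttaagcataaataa
Gbp3: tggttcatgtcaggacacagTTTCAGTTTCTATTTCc
Gbp7: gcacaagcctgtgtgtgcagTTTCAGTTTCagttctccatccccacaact
Irgm1: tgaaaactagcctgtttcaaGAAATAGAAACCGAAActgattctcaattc
Irgm2: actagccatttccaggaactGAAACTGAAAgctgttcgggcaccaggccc

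Over the 55 members with a promoter in the table (250 bases before to 50 after the start), 22 held the ISRE core (40%), where 1079 of 27025 genes did (3.99%). The GAS pattern was in 13 of the 55 (23.6%) and in 9.55% of all genes, and 5 members held both (Gbp7, Ifitm3, Irf2, Irgm2 and Oas1a), overlapping in Ifitm3 alone. Of the members higher in Sf1-Cre, 14 of 36 held the ISRE core, and of those lower 1 of 4, Stat4. Among members not called or not tested, 2 of 3 and 5 of 12 held it. The GAS pattern was in 9 of the 36 higher members and in 1 of the 4 lower, Isg20. It was in 2 of the 3 not called and in 1 of the 12 not tested. A match is a description of these letters and not a site shown to be bound.

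Among the antiviral effectors that act on RNA, Ifih1, the cytoplasmic sensor of long double-stranded RNA, read 4.54 and 4.30 in the controls, 7.88 and 7.76 in Dhh-Cre, and 7.50, 7.47, 8.04 and 7.97 in Sf1-Cre. It rose 10.03-fold in Sf1-Cre and 10.6-fold in Dhh-Cre (log2 3.33 ± 0.21 and 3.41 ± 0.24, SE; adjusted p = 4.2e-06 and 1e-05). The Ifit proteins, which bind foreign RNA, rose in both groups, 3 of 3 tested (46.6% of all tested genes in Sf1-Cre, 49.1% in Dhh-Cre). Ifit3 read 4.51 and 4.08 in the controls, 6.70 and 6.42 in Dhh-Cre, and 6.86, 6.59, 6.84 and 6.97 in Sf1-Cre, a rise of 5.75-fold and 4.82-fold, and Ifit1 read 3.10 and 2.21 in the controls, 5.03 and 5.55 in Dhh-Cre, and 5.52, 5.17, 5.39 and 5.92 in Sf1-Cre, a rise of at least 2.83-fold and 2.45-fold. Ifit2 read 2.90 and 2.53 in the controls, 3.91 and 4.03 in Dhh-Cre, and 4.09, 4.23, 4.43 and 4.42 in Sf1-Cre. Its mutant arrays were close to the floor, and with values under it set to it the log2 difference was 0.29 in Sf1-Cre and 0.01 in Dhh-Cre, neither passing.

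The oligoadenylate synthetases make the messenger that activates RNase L, and 3 of the 4 tested members rose in each group. The shares of all tested genes were 46.6% in Sf1-Cre and 49.1% in Dhh-Cre. Oasl2, an oligoadenylate synthetase-like protein, read 4.26 and 4.18 in the controls, 7.81 and 7.28 in Dhh-Cre, and 6.76, 6.88, 7.47 and 7.43 in Sf1-Cre, a rise of 7.54-fold in Sf1-Cre and 9.998-fold in Dhh-Cre. Oas1a read 3.54 and 3.32 in the controls, 6.55 and 5.48 in Dhh-Cre, and 5.10, 5.32, 5.60 and 6.29 in Sf1-Cre, and Oas1c read 2.62 and 2.81 in the controls, 4.67 and 4.36 in Dhh-Cre, and 4.62, 4.51, 4.94 and 4.83 in Sf1-Cre. With their controls under the floor the folds in Sf1-Cre and Dhh-Cre were at least 2.99 and 4.03 for Oas1a and at least 1.65 and 1.43 for Oas1c. Oas2 was not called and read 3.17 and 2.96 in the controls, 4.32 and 3.25 in Dhh-Cre, and 3.50, 3.47, 3.60 and 4.03 in Sf1-Cre. Its difference of 0.59 ± 0.30 in Sf1-Cre turned to -0.11 with housekeeping centring and passed without Dhh-Cre 2, as did the Dhh-Cre difference, at 1.25, without that array and, at 0.95, after quantile normalization.

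The Ifitm proteins block the fusion of viruses with cell membranes, and some are also known for expression in germ cells. All 3 tested members rose in both groups (46.6% of all tested genes in Sf1-Cre, 49.1% in Dhh-Cre). Ifitm2 read 7.44 and 7.75 in the controls, 11.33 and 11.53 in Dhh-Cre, and 11.52, 11.55, 11.66 and 11.78 in Sf1-Cre, a 16.3-fold rise in Sf1-Cre and a 14.2-fold rise in Dhh-Cre (log2 4.03 ± 0.16 and 3.83 ± 0.18, SE; adjusted p = 5.75e-07 and 2.33e-06). Ifitm3, among the brightest members, read 9.65 and 8.99 in the controls, 12.40 and 12.38 in Dhh-Cre, and 12.25, 12.36, 12.17 and 12.38 in Sf1-Cre, and Ifitm1 read 6.71 and 6.93 in the controls, 8.28 and 8.25 in Dhh-Cre, and 8.15, 7.63, 7.73 and 7.51 in Sf1-Cre. Their folds in Sf1-Cre and Dhh-Cre were 7.84 and 8.41 for Ifitm3 and 1.91 and 2.72 for Ifitm1. The Ifitm1 rise in Sf1-Cre was 0.24 and did not pass when arrays were centred on housekeeping genes.

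Of the Ifi27 family, small membrane proteins induced by alpha interferon, 2 of 3 rose in each group. Among all tested genes 46.6% were higher in Sf1-Cre and 49.1% in Dhh-Cre. Ifi27l2a read 6.27 and 5.79 in the controls, 10.99 and 10.96 in Dhh-Cre, and 9.46, 9.90, 9.60 and 10.53 in Sf1-Cre, the one member that was lower in Sf1-Cre than in Dhh-Cre by limma. It rose 14.3-fold in Sf1-Cre and 30.8-fold in Dhh-Cre, the highest measured fold of a rising member there. Ifi27 rose 4.25-fold and 4.28-fold, from 9.92 and 10.08 in the controls to between 11.98 and 12.21 in the mutants. Ifi27l2b went the other way and fell by 0.71 in Sf1-Cre (adjusted p = 0.0120), a call lost without control 2 (adjusted p = 0.0722). In Dhh-Cre it lay 0.55 below control without passing. It passed there with housekeeping centring (-1.18), array weights, only the 2 groups compared, the replicate number as a block, or without Sf1-Cre 4.

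Ifi35, a protein induced by interferon in macrophages and other cells, read 8.98 and 8.78 in the controls, 12.57 and 12.22 in Dhh-Cre, and 12.36, 12.30, 12.37 and 12.45 in Sf1-Cre, and Ifi30, the lysosomal thiol reductase of antigen processing, read 8.25 and 7.95 in the controls, 10.76 and 10.82 in Dhh-Cre, and 11.01, 11.11, 11.11 and 11.16 in Sf1-Cre. Both rose tightly, Ifi35 11.2-fold in Sf1-Cre and 11.4-fold in Dhh-Cre, and Ifi30 7.99-fold and 6.47-fold. Ifi44l read 2.29 and 1.62 in the controls, 4.27 and 1.46 in Dhh-Cre, and 3.71, 3.84, 5.02 and 4.76 in Sf1-Cre, with the Dhh-Cre arrays far apart. It passed in Sf1-Cre (log2 2.38 ± 0.74, adjusted p = 0.0175) but not without control 1 (2.71) or control 2 (2.04). With values under the floor set to it the difference was 0.44 (adjusted p = 0.232), and the call was also lost with housekeeping centring (1.68, adjusted p = 0.0549) and with the replicate number as a block (1.82, adjusted p = 0.0636), by limma. The bound on the Sf1-Cre fold is 1.26, and in Dhh-Cre the difference of 0.91 ± 0.85 became -0.50 without Dhh-Cre 1 and 2.32, passing, without Dhh-Cre 2.

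The HIN-domain proteins are sensors of DNA encoded side by side on chromosome 1. Of 4 tested, 2 were higher, 1 lower and 1 not called in each group. These counts are near the shares of all tested genes. Those were 46.6% higher and 33.2% lower in Sf1-Cre, and 49.1% and 30.5% in Dhh-Cre. Ifi209 read 9.90 and 10.05 in the controls, 2.55 and 2.94 in Dhh-Cre, and 6.01, 4.72, 4.55 and 3.51 in Sf1-Cre. It fell at least 35.7-fold in Sf1-Cre, where 1 of 4 arrays was under the floor, and at least 62.9-fold in Dhh-Cre (adjusted p = 6.89e-05 and 3.14e-05). The other Ifi209 probe set, 1435330_at, read 2.15 and 2.33 in the controls and reached the floor only on Sf1-Cre 1 (4.31). The fall therefore rests on the probe set used. By the probe set used, the Sf1-Cre arrays stand in the same order as for Stat4 and the spermatid and spermatocyte sums, with Sf1-Cre 1 highest and Sf1-Cre 4 lowest. For Irf7, Irf8, Oas1a and Ifi27, which rose, they stand in the reverse order. The part of germ cell signals in the fall of Ifi209 was not tested.

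Ifi207 read 2.37 and 2.96 in the controls, 6.10 and 4.92 in Dhh-Cre, and 6.55, 5.74, 5.41 and 6.18 in Sf1-Cre and rose at least 3.92-fold and 2.85-fold. Ifi204, a macrophage member of the family, read 3.04 and 3.05 in the controls, 5.29 and 3.79 in Dhh-Cre, and 4.31, 4.77, 4.8 and 4.76 in Sf1-Cre, a rise of at least 1.58-fold and 1.45-fold, which did not pass in either group with values under the floor set to it (0.66 and 0.65) and, in Dhh-Cre, without control 1 (1.49) or control 2 (1.5). Ifi202b read 4.24 and 3.68 in the controls, 1.56 and 4.59 in Dhh-Cre, and 5.71, 5.04, 4.74 and 5.05 in Sf1-Cre and was not called. Its Dhh-Cre arrays are far apart, so that the difference from control was 0.63 without Dhh-Cre 1 and -2.40, passing, without Dhh-Cre 2. The Sf1-Cre difference of 1.17 passed without Dhh-Cre 1 or Dhh-Cre 2 (adjusted p = 0.00892 and 0.00904, limma).

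Isg20, an exonuclease that degrades viral RNA, fell in both groups and read 10.36 and 10.63 in the controls, 6.99 and 5.74 in Dhh-Cre, and 7.62, 6.38, 6.15 and 5.86 in Sf1-Cre. The fall was 15.9-fold in Sf1-Cre and 17.5-fold in Dhh-Cre (log2 -3.99 ± 0.52 and -4.13 ± 0.60, SE; adjusted p = 0.000187 and 0.000338). In Sf1-Cre its arrays again stood in the order of the spermatid and spermatocyte sums, whereas Dhh-Cre 1 was above Dhh-Cre 2, the reverse of both. The part of germ cell signals in the fall of Isg20 was not tested. Its relative Isg20l2, which processes ribosomal RNA, read 5.90 and 5.86 in the controls, 5.61 and 5.55 in Dhh-Cre, and 5.29, 5.55, 5.32 and 5.40 in Sf1-Cre. This small fall of 0.49 passed in Sf1-Cre and not without control 1 (-0.47). The 0.30 below control in Dhh-Cre did not pass, and passed only with housekeeping centring (-0.93).

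**Figure D3:**
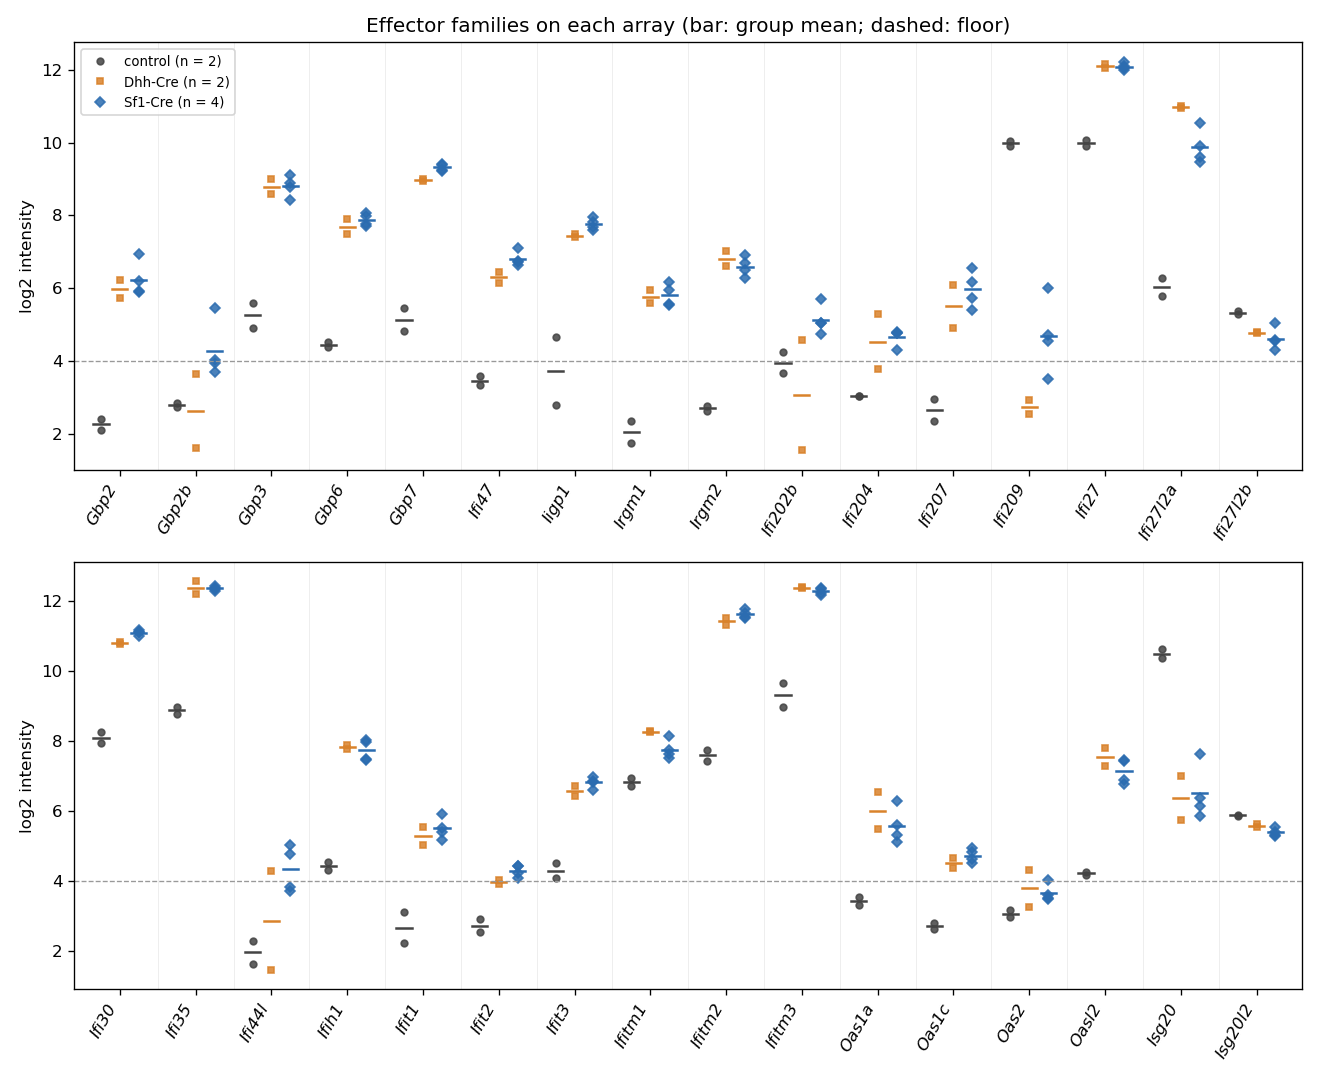
Log2 intensity of the tested effector-family members on each array (points), with group means (bars) and the floor at log2 4 (dashed). The GTPases, Ifitm2, Ifitm3, Ifi30 and Ifi35 rise with little spread; Ifi209 and Isg20 fall from near log2 10 in the controls.

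Xaf1, a pro-apoptotic zinc-finger protein induced by interferon, gave opposite answers on its 2 probe sets. The brighter, 1443621_at, read 4.88 and 4.32 in the controls, 3.33 and 2.88 in Dhh-Cre, and 8.93, 8.66, 8.86 and 8.86 in Sf1-Cre. By this probe set Xaf1 rose 18.8-fold in Sf1-Cre (log2 4.23 ± 0.21, SE; adjusted p = 1.39e-06) and fell at least 1.51-fold in Dhh-Cre (adjusted p = 0.000567), where it was under the floor. The other, 1443698_at, read 3.55 and 2.81 in the controls, 9.11 and 9.21 in Dhh-Cre, and 3.31, 4.67, 3.46 and 3.82 in Sf1-Cre. In a fit of all 22539 probe sets above the filter this second probe set rose at least 35.7-fold in Dhh-Cre (adjusted p = 9.23e-06, limma) and differed by 0.63 from control in Sf1-Cre without passing (adjusted p = 0.159).

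Each probe set of Xaf1 was therefore bright in 1 mutant group and near the floor in the other, on every array. Sf1-Cre was at least 28.4-fold above Dhh-Cre by the first and Dhh-Cre at least 31.8-fold above Sf1-Cre by the second. The mean of both gave a Dhh-Cre rise of 2.24 and 0.19 between the mutant groups, which did not pass (adjusted p = 0.567). The mice were of a mixed strain background, and whether either probe set binds the C57BL6/6J and 129 alleles alike was not tested. The values are therefore the signal of each probe set, and a difference in Xaf1 expression between the mutant groups is not shown by them.

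**Figure D4:**
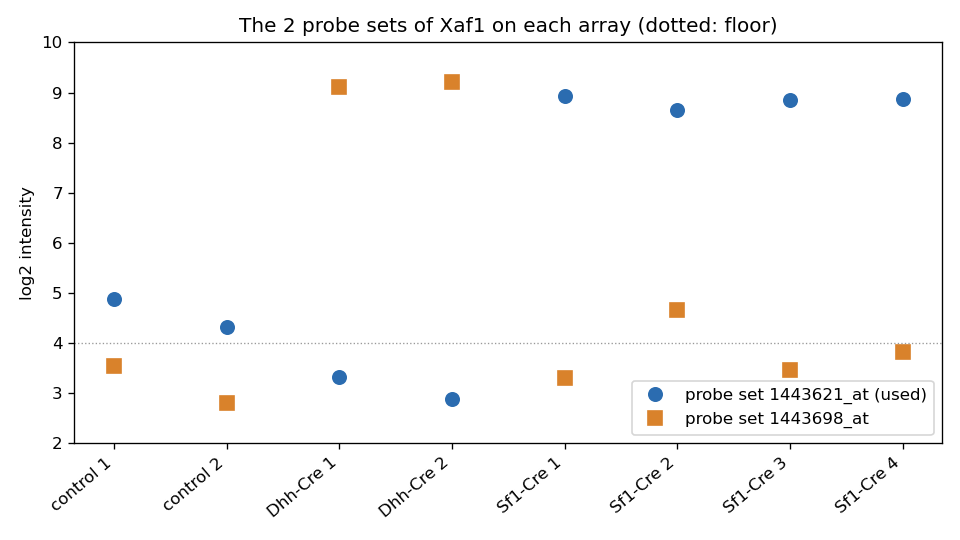
Log2 intensity of the 2 Xaf1 probe sets on each of the 8 arrays (circles, 1443621_at, the one used; squares, 1443698_at), with the floor at log2 4 (dotted). The first is above 8.6 on the 4 Sf1-Cre arrays only, and the second above 9.1 on the 2 Dhh-Cre arrays only.

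The mutant groups differed from each other in few of these genes. Sf1-Cre was higher than Dhh-Cre in 5 members (12.9% of all tested genes) and lower in 1 (11.8%), where 24.6% of all tested genes passed in either direction, with a median difference of 0.21 against 0.02 over all genes, and 12 members had an unadjusted p under 0.05. The 5 were Xaf1 by its brighter probe set, Stat4 (3.09 ± 0.82, adjusted p = 0.0301), Ifi209 (at least 1.62-fold, adjusted p = 0.0429), Stat5b (0.91 ± 0.28, adjusted p = 0.0487) and Stat5a (0.80 ± 0.18, adjusted p = 0.0184), by limma. The 1 lower was Ifi27l2a (-1.10 ± 0.30, adjusted p = 0.0337). For Stat4 and Ifi209 both groups lay under the controls, and Sf1-Cre was the nearer to them. Every Sf1-Cre array lay above both Dhh-Cre arrays for 16 members (24.5% of all tested genes) and below both for 6 (23.2%).

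The Xaf1 call rests on the choice of probe set, and each of the other calls was lost without at least 1 of the arrays. With values under the floor set to it, the Ifi209 difference was 0.82 and did not pass (adjusted p = 0.284, limma). The Stat5a call was lost without Dhh-Cre 1 (0.66), and that of Ifi27l2a without Dhh-Cre 1 (-1.09), Dhh-Cre 2 (-1.12), Sf1-Cre 2 (-1.11) or Sf1-Cre 3 (-1.01). Stat4 was lost without either control (3.09), Dhh-Cre 1 (1.64), Sf1-Cre 2 (3.05) or Sf1-Cre 3 (3.21). Ifi209 was lost without either control (1.95), Dhh-Cre 1 (1.76), Dhh-Cre 2 (2.15), Sf1-Cre 2 (1.94) or Sf1-Cre 3 (2.00), and Stat5b without any array but Sf1-Cre 1 (0.79 to 1.02). Without Sf1-Cre 1, Ifitm1 (-0.64) and Irf4 (1.11) passed as well, Irf4 did so also without Sf1-Cre 4 (1.80), Gbp2b without Dhh-Cre 1 (2.65) and Ifi202b without Dhh-Cre 2 (3.57).

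The 15 members that were not tested were 6 oligoadenylate synthetase genes (Oas1b, Oas1e, Oas1f, Oas1h, Oas3 and Oasl1), 4 Ifitm genes (Ifitm5, Ifitm6, Ifitm7 and Ifitm10), Ifit1bl1, Ifit1bl2, Ifi203, Ifi213 and Gbp8. Of these 12 were under the floor on all arrays and 3 reached it on 1 array. Ifitm6, a gene of myeloid cells, was one of the 3, at 2.05 and 2.54 in the controls, 2.73 and 2.28 in Dhh-Cre, and 5.58, 3.31, 2.85 and 3.92 in Sf1-Cre. Its only value above the floor was on Sf1-Cre 1.

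Other probe sets existed for 22 members, 31 in all, of which 19 reached the floor. Apart from Irf3, Stat3 and, in Dhh-Cre, Xaf1, those 19 had the sign of the probe set used, though not always its size, as for Stat6. For Stat2, Stat5a, Stat5b, Irf4, Ifi209 and Ifi44l no other probe set reached the floor on 2 arrays, so their results rest on the probe set used. Probe sets whose names end in _s_at or _x_at can bind related transcripts, and those of Gbp2, Ifi27, Ifi27l2b, Ifi35, Ifi202b, Irf2, Irf2bpl and Irf3 are of this kind, so their levels may hold signal of paralogs.

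Genes of the pathway outside these families can be read against the same shares of all tested genes (46.6% higher and 33.2% lower in Sf1-Cre, 49.1% and 30.5% in Dhh-Cre). Of 36 tested interferon-stimulated genes of other names, 29 were higher and 4 lower in Sf1-Cre, and 28 and 4 in Dhh-Cre. Lgals9, a galectin of immune cells, rose at least 13.8-fold in Sf1-Cre and 12.8-fold in Dhh-Cre. On the log2 scale Nmi, a partner of Ifi35, rose by 3.65 ± 0.15 and 3.26 ± 0.17, and the ubiquitin ligase Trim21 and the surface protein Ly6e by 3.67 and 3.17 in Sf1-Cre. The 4 lower genes were Nlrc5, an activator of MHC class I genes, Herc6, Ddx60 and the antiviral GTPase Mx1 in both groups. The log2 differences of Nlrc5, Herc6 and Mx1 were -2.86, -2.14 and -0.99 in Sf1-Cre and -3.77, -3.43 and -2.09 in Dhh-Cre, while Ddx60, under the floor on all mutant arrays, fell at least 1.98-fold in each.

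Sensors and adaptors upstream of interferon production were higher in 11 of 13 tested genes in Sf1-Cre and in 10 in Dhh-Cre. Tlr3, a receptor of double-stranded RNA, read 5.42 and 4.35 in the controls, 8.58 and 8.42 in Dhh-Cre, and 9.04, 9.09, 9.04 and 9.13 in Sf1-Cre, and Sting1, the adaptor of DNA sensing, rose by 3.18 ± 0.23 and 3.14 ± 0.26. Dhx58 differed by -1.75 in Sf1-Cre and -2.96 in Dhh-Cre, and Cgas, the enzyme that signals to Sting1, by -1.44 and -2.70, all passing as lower. Among the negative regulators 7 of 10 tested were higher and 2 lower in each group. Socs3, an inhibitor of Jak kinases, read 3.14 and 3.34 in the controls, 8.90 and 8.24 in Dhh-Cre, and 8.47, 7.63, 8.34 and 8.26 in Sf1-Cre, and Usp18, which restrains the Ifnar2 chain, read 3.43 and 3.19 in the controls, 7.25 and 7.17 in Dhh-Cre, and 6.24, 6.46, 6.46 and 6.61 in Sf1-Cre. Both rose with no overlap, while Pias2 and Pias4 fell and Socs1 was under the floor.

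Markers of other cell types are counted against those shares of all tested genes. Of 16 macrophage and monocyte markers 15 were higher and 1, Aif1, lower in both mutant groups, and none was at the floor throughout. Their summed intensity was 16097 and 11945 in the controls, 25970 and 26216 in Dhh-Cre, and 31973 to 37762 in Sf1-Cre. Aif1 made up 10822 and 6347 of the control sums, and the other 15 summed to 5275 and 5598 in the controls, 25651 and 25655 in Dhh-Cre, and 31140 to 36943 in Sf1-Cre. Tyrobp, an adaptor of myeloid receptors, rose by 4.58 ± 0.15 and 4.03 ± 0.17, and Lyz2, the macrophage lysozyme, by 4.27 ± 0.15 and 3.26 ± 0.18. Of the 10 endothelial markers, 7 of 8 tested were higher in each group, with Cdh5 and Pecam1 under the floor, and their sum went from 363 and 398 in the controls to 1532 and 1831 in Dhh-Cre and 948 to 1619 in Sf1-Cre.

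The markers of T and NK cells gave another picture. Of 4 tested T and NK cell markers 3 were lower in each group (Cd2, Cd3d and Cd247), and 6 (Cd3g, Cd4, Cd8a, Gzma, Ncr1 and Nkg7) were under the floor on all arrays. The sum of that list was 509 and 604 in the controls, 97.9 and 112 in Dhh-Cre, and 106 to 122 in Sf1-Cre. The 3 tested dendritic cell markers were higher in Sf1-Cre, 2 of them in Dhh-Cre, with Flt3, Itgax and Xcr1 under the floor, and the sum rose from 85.2 and 90.8 to 513 and 528 in Dhh-Cre and 375 to 693 in Sf1-Cre. Of 2 tested B cell markers, 2 were higher in Sf1-Cre and 1 in Dhh-Cre. The B cell sum was 33.8 and 36.0 in the controls, 59.5 and 65.1 in Dhh-Cre, and 664, 77.4, 150 and 113 in Sf1-Cre, with Pax5 under the floor. The neutrophil and mast cell sum was 6745 on Sf1-Cre 1 and 64.2 to 167 on the other 7 arrays.

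Of 9 tested Sertoli markers 6 were higher and 2 lower in Sf1-Cre, where 79.8% of all tested genes were called, and 8 were higher in Dhh-Cre. The Sf1-Cre share called is near that of all genes. All 6 tested granulosa markers were higher in both, with Esr2 under the floor. The Leydig sum rose from 5656 and 6434 in the controls to 18208 and 22914 in Dhh-Cre and 19266 to 28473 in Sf1-Cre. Of 9 spermatocyte markers 7 were lower in Sf1-Cre and 6 in Dhh-Cre. The part of any of these cell populations in the changes of the interferon families was not tested.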

How the data were processed

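Total RNA of 8 whole-testis samples was hybridized to 1 oligonucleotide array each. The authors deposited intensity values on a linear scale, made with GCRMA per the submitters' processing notes, its version not given in the sources used here. As generally run, it corrects background by probe sequence and normalizes arrays by quantiles. About 11.4% of the deposited intensity values of 6 arrays, and nearly none on Sf1-Cre 3 and Sf1-Cre 4, are written with 3 digits. Their log2 was taken here.

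Of 45101 probe sets, 34958 carry 1 symbol, 932 several and 9211 none listed; 34754 matched the GRCm38.p6 annotation by Entrez identifier. The probe set with the highest mean stood for each gene. Genes with at least 2 arrays at log2 4 were tested, which left out 4392 genes and 15 members. Family genes whose probe sets carry several symbols, Isg15 among them, are not analysed here. The members and lists were chosen with earlier results of these data known, and the lists are described by counts and medians.

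Group means were fitted to all 8 arrays with limma 3.58.1 in R 4.3.3 (5 residual and 2.73 prior degrees of freedom). The p-values are 2-sided and adjusted by Benjamini and Hochberg over 13802 genes. Errors are limma's SE. A fold against a group with arrays under log2 4 is a lower bound, with those arrays set to log2 4, and none is given where both means lie under it. The number of arrays limits the precision. The p-values set each difference against the spread within groups of these samples, pooled over the groups and moderated across genes. Simulated data had 100 genes shifted by log2 2 and 100 by log2 1 among 13802. With the group sizes of the Sf1-Cre comparison, limma called 95% of the first and 48% of the second. These shares were 84% and 24% for Dhh-Cre, and 92% and 50% between the mutant groups. In the data 79.8% and 79.6% of tested genes were called against control, which loosens the Benjamini-Hochberg cut-off. The simulated shares therefore do not give the recovery in these data.

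Values on every array are given for the tested Irf and Stat genes and, in each other family, for up to 4 members with the largest change in Sf1-Cre; further members were named to spell out counts, after their values were seen. Alternatives changed 1 choice at a time: quantile normalization, housekeeping centring, no filter or a filter at log2 6, the mean of all probe sets, trended robust moderation, array weights, only the 2 groups compared, at least a 2-fold change, the replicate number as a block, and leaving out each array. Setting values under log2 4 to 4, dropping the 3 arrays whose Spink8 level reached log2 10 and fitting every probe set were chosen after seeing the data. Figures were drawn with matplotlib 3.10.9 in Python 3.11.15.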

Additional observations from a re-analysis of the deposited data

Results flagged for a closer look

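Among the 4 Sf1-Cre arrays an array was taken as apart where its gap to the nearest other, as a share of the range, exceeded Dixon's 95% critical value, which chance alone exceeds in about 1 in 20 groups. Ifi204 in Sf1-Cre was marked, with the lowest array, Sf1-Cre 1 at 4.31, separated from the others (4.76 to 4.8) by 0.934 of the range.

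The mutant groups differed in their change from the shared controls for 6 members, each tested by limma as Sf1-Cre minus Dhh-Cre on the log2 scale. The differences were 5.72 for Xaf1, 3.09 for Stat4, 1.95 for Ifi209, 0.91 for Stat5b, 0.80 for Stat5a and -1.10 for Ifi27l2a. That of Xaf1 has the opposite sign on its other probe set (-5.34). Those of Xaf1 and Ifi209 rest on Dhh-Cre arrays under log2 4 and are fitted values, with bounds of 28.4-fold and 1.62-fold.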

How the results depend on the processing

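Over 20 alternatives the members called higher numbered 32 to 43 in Sf1-Cre and 31 to 39 in Dhh-Cre, always within 1.5 times of 41 and 38. The smaller counts moved more. Members lower in Sf1-Cre, 5 in the fit described, were 10 with no filter, 3 with a filter at log2 6, 3 with a 2-fold minimum and 3 without the Spink8 arrays; in Dhh-Cre, 4 became 7 with housekeeping centring and 8 with no filter. Between the mutant groups, the 5 higher became 3 with housekeeping centring, 2 with only the 2 groups compared, 3 with a 2-fold minimum and 1 without the Spink8 arrays, and the 1 lower became 0 with only the 2 groups compared and 0 without the Spink8 arrays (limma; 12 members had an unadjusted p under 0.05 in the fit described). Leaving out 1 array gave 39 to 43 higher and 4 to 5 lower in Sf1-Cre, 35 to 38 and 4 to 5 in Dhh-Cre, and 2 to 6 and 0 to 2 between the mutant groups, with an arm of 1 array assumed to vary like the others.

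Directions reversed in these cases: with housekeeping centring, Irf3 (-0.10 in Sf1-Cre, -0.11 in Dhh-Cre) and Oas2 in Sf1-Cre (-0.11); Irf2 in Sf1-Cre without control 2 (0.18); Xaf1 in Dhh-Cre by the mean of its probe sets (2.24). In Dhh-Cre without Dhh-Cre 1 they were Ifi202b (0.63), Ifi44l (-0.50) and Irf4 (0.0028), without Dhh-Cre 2 Gbp2b (0.86; -1.17 without Dhh-Cre 1), and for Ifi202b also with values under log2 4 set to 4 (0.17) and without the Spink8 arrays (0.63). With the other array left out instead, Irf2 was at -0.30 (control 1) and, without Dhh-Cre 2, Ifi202b was at -2.40, Ifi44l at 2.32 and Irf4 at -0.54. Apart from the means of probe sets and the smaller sets of arrays or genes, the cause was not tested. Of 2241 values of single members and of the medians over members under alternatives, 2092 counted as the same. For a member this means the same direction and side of the threshold. For a median, which has no threshold, it means the same direction and a shift under the spread within groups. Another 11 values, all medians, kept direction and shifted by more.

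Deviations of samples with the same replicate number had r from -0.194 to 0.380 over 13802 genes, the highest between Dhh-Cre 2 and Sf1-Cre 2. In a group of 2 arrays the deviations mirror each other, so this check cannot decide whether the numbers link samples. The fit described takes the numbers as names. With the replicate block the counts were 39 higher and 4 lower in Sf1-Cre, 36 and 5 in Dhh-Cre, and 3 and 1 between the mutant groups. With 2 arrays in 2 of the groups, small changes can be missed, and levels under log2 4 give no measured fold.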
